A study of Homo sapiens with 54 samples.

Results

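The 9 genes described here lie at the ends of a ranking of RNAs by how far their level in an Argonaute immunoprecipitate (IP) departs from their level in total cell RNA. They were chosen by their measured IP minus lysate difference in cells given a negative control RNA, as 9 of 18417 genes among the highest or lowest. The ranking was made after both fractions had been put on one scale by joint quantile normalization of all arrays. ZFP36, MBP, SERTAD3, CHCHD10, SOCS1 and CRYAB stood high in the control IP, and LMAN1, MALAT1 and SKAP2 stood low. All 9 passed a filter on low values that left 11050 genes. The control arrays chose the genes, so control values are given as a description, and every test rests on the other 8 transfections.

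The cells were H4, an established human line that the labels call glioneuronal, and each culture was harvested 48 h after transfection with 1 of 9 small RNAs. From the microRNA group that shares bases with miR-107 came miR-107 itself, miR-103, miR-195 and miR-16. The others were miR-320, miR-15b*, the negative control RNA, and a pair of altered forms called miR-107-mut1 and miR-107-mut2. The design text counts the altered molecules and the negative control as non-physiological. RNA was taken from an IP with the anti-Argonaute monoclonal antibody 2A8 and from the total lysate, with 3 biological replicates of each, which gave 54 Affymetrix Human Gene 1.0 ST arrays in 18 groups. All groups were transfected, and an IP with another antibody was not analysed here, so binding to Argonaute and binding to the antibody or beads cannot be told apart.

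As deposited, the IP arrays had means of 3.61 to 3.65 log2 units over all probe sets and the lysate arrays 7.11 to 7.17, so the fractions carry an offset, and a difference between them is given on the joint scale. Comparisons within a fraction use the deposited values. Measured by their mean correlation with the other arrays of their fraction, 4 arrays stood apart: replicate 1 of the miR-15b* IP, and replicate 2 of the miR-103, miR-15b* and miR-16 lysates. Of the marker genes for cell types, 7 of 11 neuronal, 6 of 10 astrocyte and glial progenitor, 7 of 10 oligodendrocyte genes other than MBP, and 1 of 7 haematopoietic genes on the array passed the filter on low values. Means are given ± SD and differences ± SE. Every adjusted p is limma's, by the Benjamini-Hochberg method across all 11050 genes, and "called" means an adjusted p below 0.05. The number of arrays, 3 a group, limits the precision.

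Argonaute proteins hold a small RNA and use it as a guide to messages. A microRNA mainly recognises its targets through the seed, the bases 2 to 8 from its 5′ end, and an Argonaute IP recovers messages held in this way along with the microRNAs themselves. A gain in such an IP over the lysate is meant to read an RNA's association with the precipitate and not its amount in the cell. Here the gain is a place relative to the other RNAs of the same fraction, and what else bears on it was not tested.

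The mature sequences of the transfected microRNAs are shown because the comparisons among transfections rest on them, and the seed is in capitals. They are taken from RefSeq (GRCh38.p14), 5′ to 3′, matched by name for 5 of the transfected RNAs, and the 3 nonphysiological molecules and miR-320 are named only.
miR-103: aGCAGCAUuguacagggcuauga
miR-107: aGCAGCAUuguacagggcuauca
miR-16: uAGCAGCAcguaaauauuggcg
miR-195: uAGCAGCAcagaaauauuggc
miR-15b*: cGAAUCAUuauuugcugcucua
miR-103 and miR-107 share the seed GCAGCAU and 22 of 23 bases. Likewise, miR-16 and miR-195 share the seed AGCAGCA and 19 of 21 bases, while miR-15b* has a seed of its own. The design text names miR-15b* and the sample titles miR-15b, and the arm printed, its locus and its seed follow the design text. The miR-103 sequence is encoded on the plus strand at chr20:3917541-3917563 and on the minus strand at chr5:168560904-168560926, and miR-107 lies on the minus strand at chr10:89592756-89592778. For miR-16 the table gives chr13:50049027-50049048 on the minus strand and chr3:160404754-160404775 on the plus strand, and for miR-195 chr17:7017667-7017687 on the minus strand. The miR-15b* arm lies at chr3:160404645-160404666 on the plus strand.

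The first question was whether the position of the 9 genes in the control recurred in arrays that had not chosen them. It did in all 8 other transfections: the 6 genes high in the control IP were higher in the IP and the 3 low genes were lower, by at least 2 log2 units (4-fold), in 72 of 72 pairs of gene and transfection. Over the mean of the 8 transfections the differences were 3.03 to 4.68 for the high genes and -4.35 to -4.07 for the low genes. Over all pairs of gene and transfection tested, 6.15% were called at least 2 log2 units higher and 9.75% lower. Among all genes tested, 1.86% were called 2 log2 units higher in each of the 8 transfections and 3.65% lower. For the mean of the 8, 5.58% were called at least 2 log2 units higher and 9.2% lower. Genes were called in either direction at any size in 44.3% (higher) and 46.3% (lower). In every one of the 9 genes the 24 IP arrays and the 24 lysate arrays did not overlap, which held for 19.5% of all genes with the IP above and 15.3% with the IP below. On the deposited values as they stand, with the offset between the fractions left in, the mean difference was negative for ZFP36 (-0.83), SERTAD3 (-0.97), CHCHD10 (-1.05), SOCS1 (-1.02) and CRYAB (-0.72), so "higher" for these 5 genes means higher relative to the other RNAs of the same fraction. In bulk RNA such as this, fewer cells of a type and less RNA per cell cannot be told apart.

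**Figure D1:**
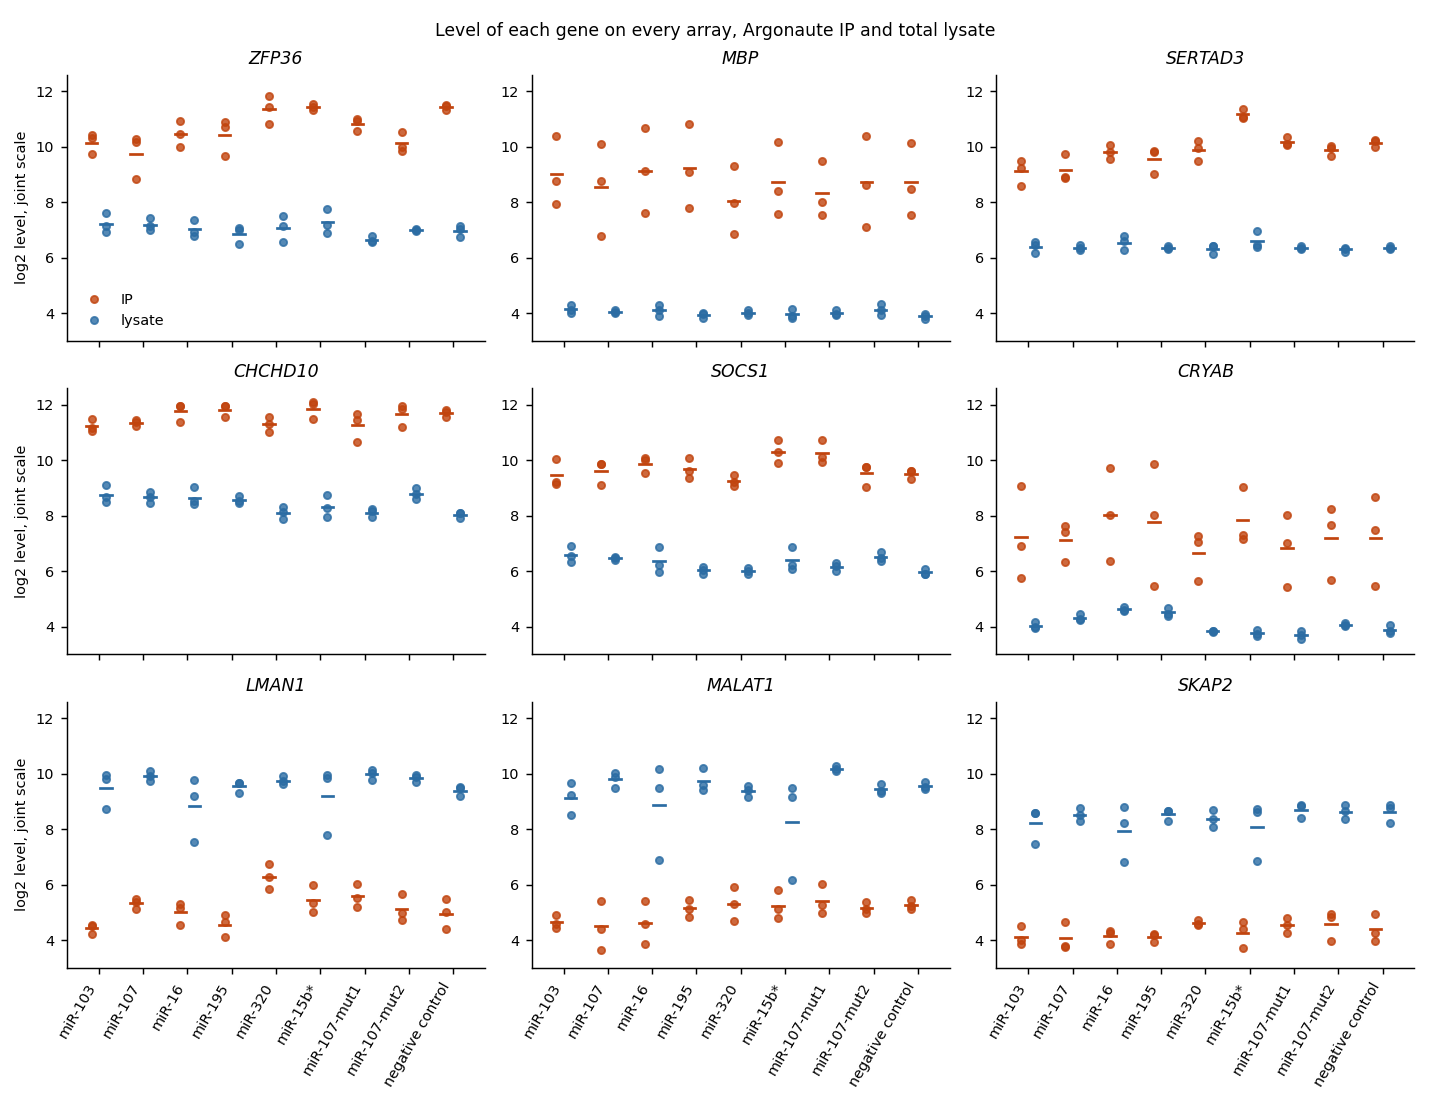
Log2 level on the joint scale of the 9 genes on each of the 54 arrays, by transfection along the horizontal axis, with IP arrays in red on the left and lysate arrays in blue on the right of each pair and short bars at group means. In the upper 6 panels all IP points lie above all lysate points of the 8 transfections, and in the lower 3 panels all lie below.

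ZFP36 encodes tristetraprolin, a protein that binds AU-rich elements in messages and promotes their decay. On its probe set 8028652 the control IP arrays stood at 11.46, 11.52 and 11.34 on the joint log2 scale, against 6.74, 7.05 and 7.15 in the control lysate. This difference of 4.46 ± 0.13 was the 4th highest. In the other 8 transfections the IP arrays ran from 8.82 to 11.84 with a median of 10.55, against 6.49 to 7.76 with a median of 7.0 in the lysates. IP and lysate stayed apart on every array. The mean difference of 3.53 ± 0.11 (11.6-fold, adjusted p = 1.3e-27) was the 8th highest of all genes. In 8 of 8 transfections the difference was below the control's. Because the control arrays chose the gene, a smaller difference elsewhere can follow from that choice, and nothing is read from it.

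MBP encodes myelin basic protein, a main component of the myelin sheath that oligodendrocytes form. Its probe set 8023889 read 7.53, 10.15 and 8.46 in the control IP, against 3.91, 3.97 and 3.80 in the control lysate. The IP arrays were far more scattered than the lysate arrays. Elsewhere the IP ran from 6.80 to 10.80 (median 8.69), against 3.82 to 4.34 (median 4.02) in the lysates. The mean difference over the 8 transfections was 4.68 ± 0.26 (25.6-fold, adjusted p = 6.9e-20). Rank 2 from the top was its place both in the control, at 4.82 ± 0.77, and in the mean of the others. MBP was one of 2 genes (0.0181% of those tested) whose IP mean exceeded the lysate mean in all 8 transfections even on the deposited values, by 0.24 to 1.30 log2 units, despite the offset between the fractions.

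SERTAD3, a SERTA domain transcriptional coregulator, CHCHD10, a small mitochondrial protein with a coiled-coil-helix-coiled-coil-helix domain, and SOCS1, a suppressor of cytokine signalling through JAK kinases, formed a closely placed trio in the control, at ranks 5, 6 and 7. SERTAD3 (probe set 8036908) was at 9.98, 10.21 and 10.25 in the control IP, against 6.30, 6.36 and 6.41 in the control lysate. CHCHD10 (8074939) was at 11.81, 11.74 and 11.54 in the control IP, against 8.09, 8.10 and 7.93 in its lysate. The IP arrays of SOCS1 (7999423) read 9.62, 9.31 and 9.62, against 5.91, 5.90 and 6.09 for the lysate. No array of one fraction came near the other in any of the trio. Over the 8 other transfections the IP minus lysate difference was 3.44 ± 0.08 for SERTAD3 (adjusted p = 1.1e-31), 3.03 ± 0.08 for CHCHD10 (adjusted p = 1.7e-29) and 3.43 ± 0.09 for SOCS1 (adjusted p = 1.1e-29). Their ranks there were 14, 46 and 15. For CHCHD10 the control difference of 3.65 exceeded that of all 8 transfections, which ran from 2.48 to 3.54. The genes were chosen by a large control difference, so a smaller one elsewhere can follow from the choice alone, and nothing is read from it.

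CRYAB encodes alphaB-crystallin, a small heat shock protein that keeps unfolding proteins soluble. Probe set 7951662 gave 5.47, 8.67 and 7.48 in the control IP, against 3.79, 3.84 and 4.06 in the control lysate, a difference of 3.31 ± 0.94 at rank 13. In the other transfections its IP arrays spanned 5.42 to 9.85 (median 7.27), against 3.56 to 4.70 (median 4.05) in the lysates. Like MBP, it varied widely among IP arrays of one group and little among lysate arrays. The mean difference was 3.22 ± 0.27 (9.34-fold, adjusted p = 1.4e-14).

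LMAN1 is a mannose-binding cargo receptor that carries glycoproteins from the endoplasmic reticulum towards the Golgi. It had the lowest control difference of all 11050 genes, -4.43 ± 0.33: on probe set 8023561 the control IP read 4.39, 5.0 and 5.48, against 9.18, 9.52 and 9.48 in the lysate. Over the other transfections the IP arrays ran from 4.10 to 6.74 (median 5.18), against 7.54 to 10.13 (median 9.76) in the lysates. The mean difference was -4.35 ± 0.14 (20.3-fold lower, adjusted p = 4.3e-27). Only CPNE3, at -4.36, was lower among the genes tested.

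MALAT1 is a long noncoding RNA that is retained in the nucleus and collects at nuclear speckles. Its main probe set, 7941272, was at 5.22, 5.11 and 5.46 in the control IP, against 9.52, 9.69 and 9.43 in the control lysate. The other IP arrays lay between 3.64 and 6.04 (median 5.04), against 6.16 to 10.28 (median 9.49) for the other lysates. IP and lysate again did not overlap. The mean difference of -4.34 ± 0.20 (20.3-fold lower, adjusted p = 1.8e-22) was the 3rd lowest, as in the control, where it was -4.28 ± 0.13. A second MALAT1 probe set, 7949410, which did not pass the filter (mean 4.98), differed by -2.53 on the joint scale with adjusted p = 4.1e-19 when put in place of the first. Its deposited group means were 1.74 to 2.32 in the IPs, against 7.29 to 8.48 in the lysates.

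SKAP2, an adaptor protein of Src family kinase signalling, was at 4.25, 3.97 and 4.96 in the control IP on probe set 8138689, against 8.22, 8.88 and 8.76 in the control lysate, a difference of -4.23 ± 0.36. In the other transfections the IP spanned 3.72 to 4.94 (median 4.30), against 6.80 to 8.88 (median 8.58) in the lysates. The mean difference was -4.07 ± 0.13 (16.8-fold lower, adjusted p = 3.8e-27), the 9th lowest. A further SKAP2 probe set carries several gene symbols and was not used.

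The low side of these differences lay around or below the middle of its arrays. The deposited IP levels over the 8 transfections were 2.43 to 4.61 for LMAN1, 2.17 to 3.93 for MALAT1 and 2.19 to 3.0 for SKAP2, where the IP arrays had medians of 3.52 to 3.65, and these genes passed the filter, a mean of at least 5.26, through their lysate levels. Likewise, MBP at 5.40 to 6.27 and CRYAB at 4.98 to 6.61 lay below the lysate medians of 7.56 to 7.74. The files used here give no detection call, so these levels are not shown to be above background, and the folds and ranks of the 5 genes are those of the normalized values only.

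**Figure D2:**
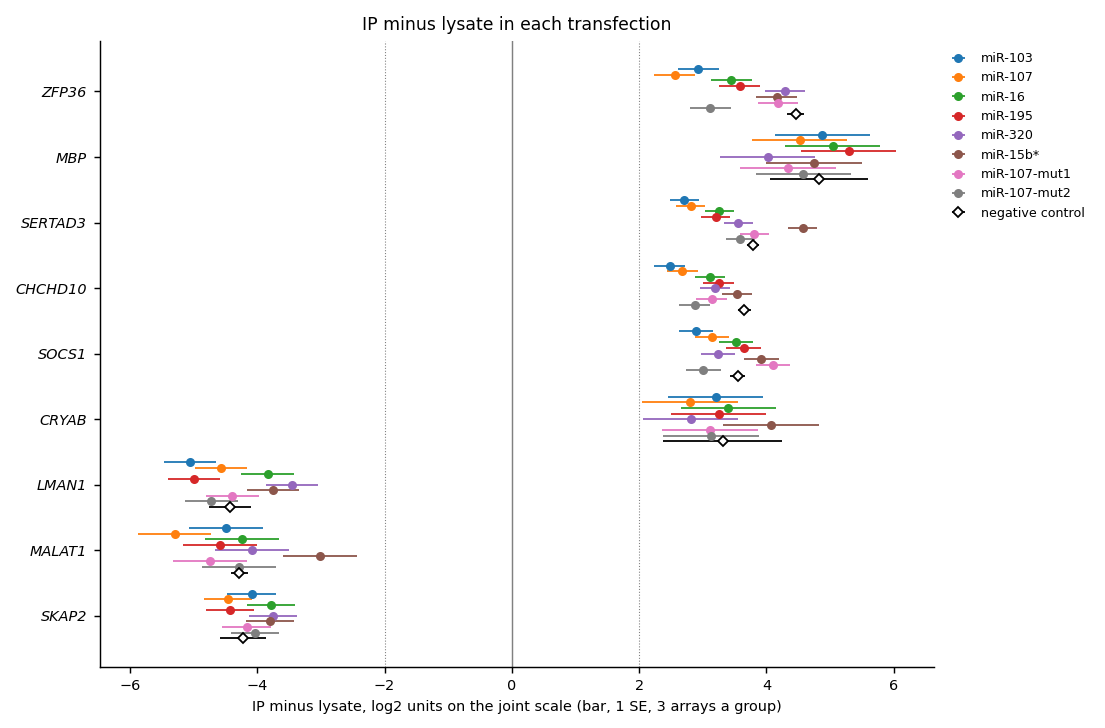
IP minus lysate in log2 units on the joint scale for each gene and each of the 8 transfections (circles) and the negative control (open diamonds), with bars of 1 SE and dotted lines at -2 and 2. All circles lie beyond the dotted lines, and those of ZFP36 and SERTAD3 spread most in relation to their bars.

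The genes just inside and just outside the choice were close in value. Between MBP and ZFP36 in the control ranking lay MIR99B at 4.63, and MIR182 headed it at 4.83, both precursor genes of microRNAs. Below SOCS1 came ZNRF2P1 at 3.55, NR6A1 at 3.47, MIR21 at 3.41, APOD at 3.40 and SNORA14A at 3.38, then CRYAB at 3.31 and LKAAEAR1 at 3.30. At the low end NSA2 at -4.30 stood between LMAN1 and MALAT1, and DNAJC10 at -4.22 and COPS2 at -4.21 followed SKAP2. So the 9 genes were not a complete set of extremes. In the mean of the 8 transfections MIR182 was at 5.03, MIR99B at 4.51, APOD at 4.0 and DNAJC10 at -4.25, at ranks 1, 3 and 4 from the top and 4 from the bottom, while NR6A1 at 2.36 and MIR21 at 2.58 stood at ranks 238 and 144.

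**Figure D3:**
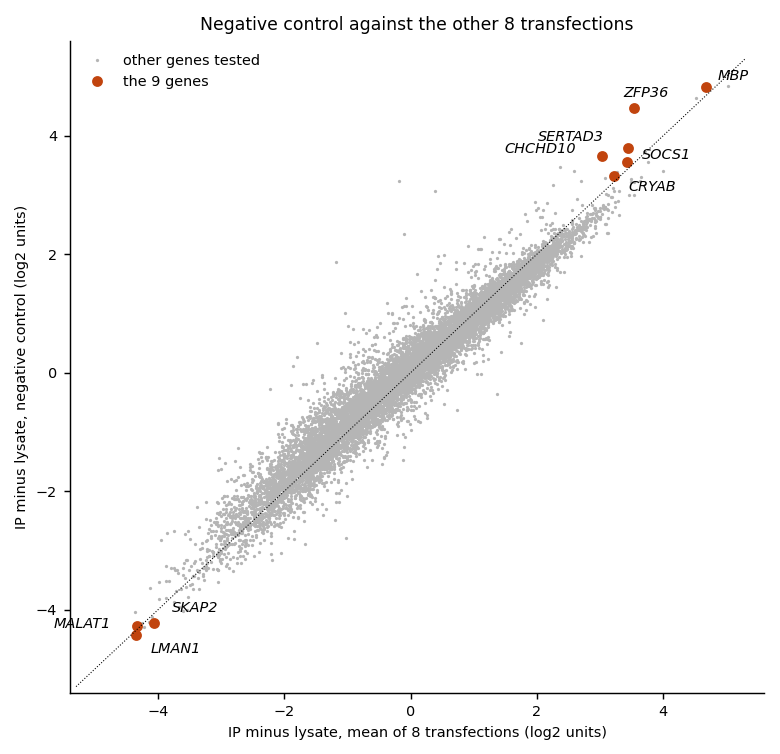
IP minus lysate in the negative control (vertical) against the mean of the 8 other transfections (horizontal), both in log2 units on the joint scale, for the 11050 genes tested, with the 9 genes in red and the line of equality dotted. The 6 high genes sit at the upper right end, with ZFP36 at 4.46 in the control and 3.53 in the mean, and the 3 low genes at the lower left end.

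The second question was whether the small RNA transfected changed the size of these differences. ZFP36 (adjusted p = 0.031) and SERTAD3 (adjusted p = 0.00091) were called in the F test that the IP minus lysate difference is unequal among the 8 transfections, which called 8.13% of all genes. For ZFP36 the difference was largest with miR-320, at 4.29 ± 0.32, and smallest with miR-107, at 2.56 ± 0.32. With SERTAD3 it was 4.57 ± 0.23 after miR-15b*, against a mean of 3.28 over the other 7, an excess of 1.29 ± 0.24 (adjusted p = 0.0017), where 0.995% of genes were called higher. The call of ZFP36 was lost when single arrays were left out, to an adjusted p of up to 0.076 (8 of 48 arrays), and that of SERTAD3 was kept throughout (0.00011 to 0.0048). For the other 7 genes the adjusted p-values were 0.16 to 0.98. LMAN1 was called without the arrays that stand apart (0.0063), and CHCHD10 (0.0014) and SOCS1 (0.0028) when each deposited array was centred on its median in place of quantile normalization. With that centring the miR-15b* excess of SERTAD3 was 1.17 and was not called (adjusted p = 0.059).

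Within the IP, 5 of the 9 genes differed among the 8 transfections on the deposited values: ZFP36 (adjusted p = 0.0061), SERTAD3 (0.0029), LMAN1 (0.0074), CHCHD10 (0.019) and SOCS1 (0.023). The same F test called 6.33% of all genes. The calls of CHCHD10 and SOCS1 were lost after cyclic loess within the fraction (0.49 and 0.084) and with trended, robust eBayes (0.1 and 0.061). Within the lysates 2 of 9 were called, CRYAB (adjusted p = 3.3e-06) and CHCHD10 (0.043), where 25.2% of all genes were.

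ZFP36 in the IP averaged 7.65 ± 0.33 after miR-103, 7.08 ± 0.92 after miR-107, 8.06 ± 0.69 after miR-16, 8.10 ± 1.04 after miR-195, 10.11 ± 0.68 after miR-320, 9.09 ± 0.72 after miR-15b*, 9.12 ± 0.18 after miR-107-mut1 and 7.95 ± 0.43 after miR-107-mut2, with 9.87 ± 0.10 in the negative control (log2 units, n = 3 each). In the order of the 8 means, the step between miR-320 and miR-107-mut1 was the sole one larger than the SD of both neighbours. The miR-320 arrays read 9.34, 10.65 and 10.34, against 6.02 to 9.73 (median 8.31) on the 21 arrays of the other 7 transfections. Of those 21 arrays, 1 lay within the miR-320 range. ZFP36 in the miR-320 IP thus lay 1.96 ± 0.38 above the mean of the other 7 (3.89-fold, adjusted p = 0.0017), in a comparison that called 8.21% of genes higher. That mean includes the low miR-107 and miR-103 groups. Beside the negative control, with no test, the miR-320 level differed by 0.24. Over all genes and the 8 transfections together 1.51% of IP comparisons were called, and 3 of 72 for the 9 genes. On the joint scale its IP minus lysate difference with miR-320 exceeded the others by 0.86 ± 0.34 (adjusted p = 0.17). Its lysate level with miR-320 was 9.30 ± 0.50, against a mean of 9.21 over the other 7.

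SERTAD3 followed ZFP36 across the IP arrays, with a Pearson r of 0.84 over 24 arrays that share normalization and transfections. Its IP means were 8.77 ± 0.71 after miR-15b*, 8.34 ± 0.39 after miR-107-mut1, 8.19 ± 0.51 after miR-320, 7.67 ± 0.45 after miR-107-mut2, 7.29 ± 0.43 after miR-16, 7.15 ± 0.76 after miR-195, 6.59 ± 0.33 after miR-103 and 6.49 ± 0.53 after miR-107. In that order the step between miR-320 and miR-107-mut2 alone exceeded both neighbours' SDs. The miR-15b* IP lay 1.38 ± 0.30 above the mean of the other 7 (adjusted p = 0.099), and, without its replicate 1, the array that stands apart, 1.74 ± 0.34 above it (adjusted p = 0.031). Leaving out that array also brought calls of lower IP levels after miR-107 for ZFP36 (-1.56 ± 0.37, adjusted p = 0.03), SERTAD3 (-1.27 ± 0.28, adjusted p = 0.026) and CHCHD10 (-0.79 ± 0.17, adjusted p = 0.024). With all arrays kept, a fit with replicate number as a block called the same lower levels after miR-107 (adjusted p = 0.017, 0.014 and 0.013). It also called SERTAD3 higher after miR-15b* (adjusted p = 0.016) and after miR-107-mut1 (0.89 ± 0.26, adjusted p = 0.04). Calls rose over all genes as well. The IP F test called 1094 genes without replicate 1 of the miR-15b* IP and 1838 with the block, against 699. Shares of all genes called lower after miR-107 in these settings are not given here.

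SOCS1 stood highest in the IP after miR-107-mut1, with arrays at 7.63, 9.04 and 8.66, against 6.48 to 8.14 (median 7.31) on the other 21 arrays. The rise was 1.18 ± 0.23 (2.27-fold, adjusted p = 0.0034), where 2.96% of genes were called higher. The call rests on a small number of arrays: it was lost without replicate 2 (0.88, adjusted p = 0.09) and without replicate 3 (1.07, adjusted p = 0.073) of the miR-107-mut1 IP, and after cyclic loess within the fraction (0.77, adjusted p = 0.082). SOCS1 means in the other IPs were 7.72 ± 0.44 after miR-15b*, 7.44 ± 0.12 after miR-320, 7.38 ± 0.07 after miR-16, 7.26 ± 0.11 after miR-107-mut2, 7.25 ± 0.35 after miR-195, 6.95 ± 0.36 after miR-103 and 6.86 ± 0.37 after miR-107.

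CHCHD10 separated the branches of the miR-107 group in the IP. The 6 arrays of miR-103 and miR-107 ran from 8.92 to 9.29 (median 9.01), against 9.66 to 10.24 (median 10.07) on the 6 arrays of miR-16 and miR-195. The ranges did not overlap, and the share of all genes with ranges apart in this way was not computed. Its level fell by 0.93 ± 0.17 (means of 9.08 with miR-103 and miR-107 and 10.01 with miR-16 and miR-195, 1.91-fold, adjusted p = 0.014), and 0.127% of genes were called lower in this contrast. After cyclic loess within the fraction the difference was -0.74 with adjusted p = 0.65, with trended, robust eBayes the adjusted p was 0.082, and it was also not called without miR-103 replicate 2 (-0.90, adjusted p = 0.052) or miR-16 replicate 2 (-0.90, adjusted p = 0.053). In the lysates the same contrast gave 0.09 ± 0.15 (adjusted p = 0.83) for CHCHD10.

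LMAN1, low in every IP, was least low after miR-320, with arrays at 4.61, 3.72 and 4.31, against 2.43 to 4.02 (median 3.18) on the other 21. It rose there by 1.07 ± 0.20 (2.10-fold, adjusted p = 0.0013), between levels around the IP array medians that are not shown to be above background. The lowest LMAN1 means in the IP were 2.63 ± 0.11 after miR-103 and 2.72 ± 0.25 after miR-195, and the miR-320 mean of 4.21 ± 0.45 was separated from the next, 3.57 ± 0.43 after miR-107-mut1, by more than either SD, as was miR-16 (3.08 ± 0.30) from miR-195. In the lysates LMAN1 with miR-320 was at 12.05 ± 0.13, and no transfection was called.

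**Figure D4:**
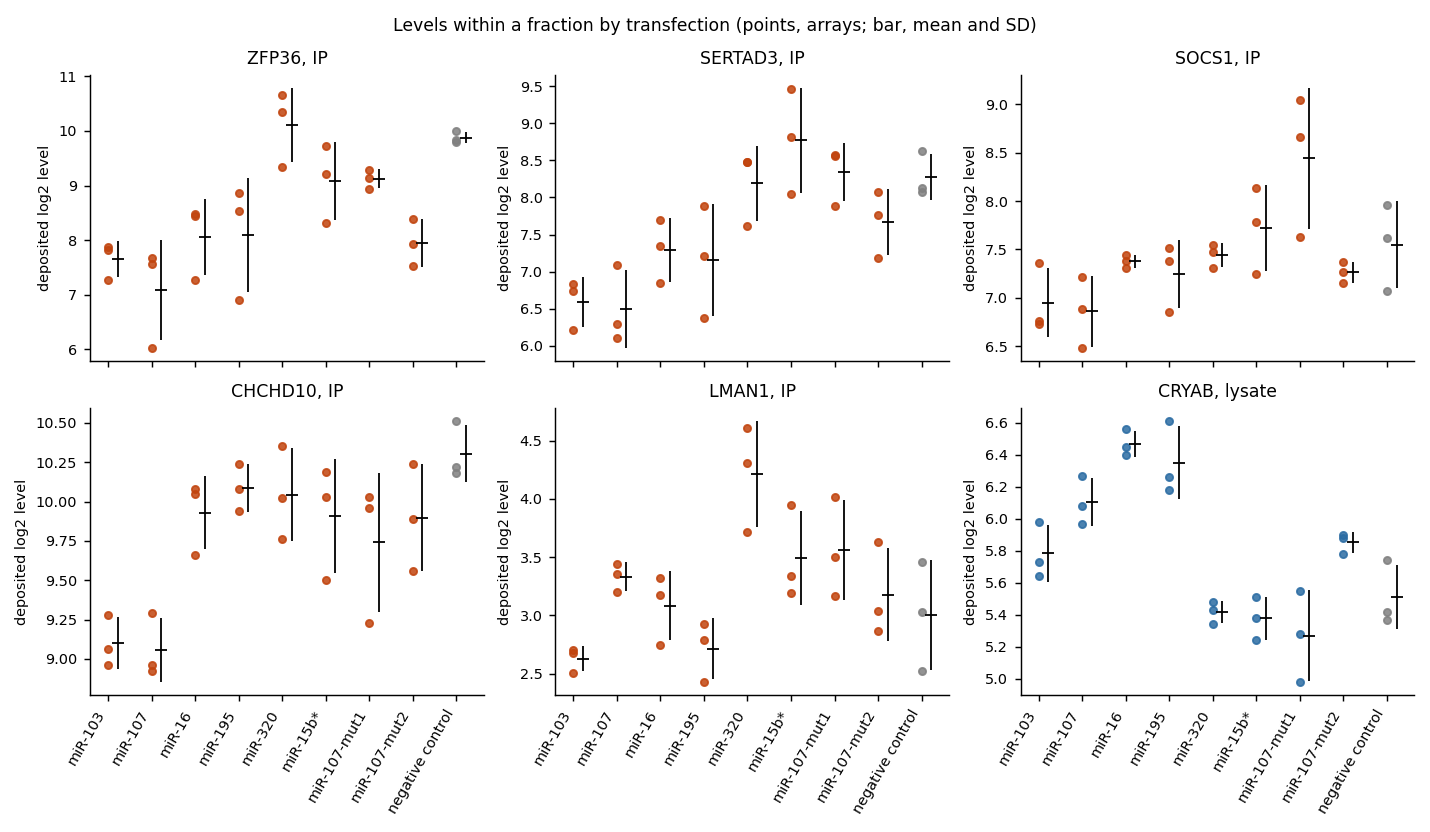
Deposited log2 levels by transfection of ZFP36, SERTAD3, SOCS1, CHCHD10 and LMAN1 in the IP (red) and CRYAB in the lysate (blue), with the negative control in grey and means with SD beside the points (n = 3 each). ZFP36 and LMAN1 are highest after miR-320, CHCHD10 is lowest after miR-103 and miR-107, and lysate CRYAB is highest after miR-16 and miR-195.

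CRYAB differed among transfections in the lysate, where its levels were tight. They were 6.47 ± 0.08 after miR-16, 6.35 ± 0.23 after miR-195, 6.10 ± 0.15 after miR-107, 5.85 ± 0.07 after miR-107-mut2, 5.78 ± 0.17 after miR-103, 5.42 ± 0.07 after miR-320, 5.37 ± 0.14 after miR-15b* and 5.27 ± 0.28 after miR-107-mut1, with 5.51 ± 0.20 in the negative control. Steps larger than both neighbours' SDs separated miR-195 from miR-107, miR-107 from miR-107-mut2, and miR-103 from miR-320. Against the mean of the other 7, CRYAB rose with miR-16 by 0.73 ± 0.10 (adjusted p = 0.00032) and with miR-195 by 0.60 ± 0.10 (adjusted p = 0.0022). It lay below that mean with miR-320 by 0.47 ± 0.10 (adjusted p = 0.0062) and with miR-15b* by 0.52 ± 0.10 (adjusted p = 0.0023). With miR-107-mut1 it was below by 0.64 ± 0.10 (adjusted p = 0.00019). The mean there includes miR-16 and miR-195, so these calls are not independent of the rises. Beside the negative control, with no test, the levels with miR-320, miR-15b* and miR-107-mut1 differed by -0.09, -0.14 and -0.24. Those with miR-16 and miR-195 differed by 0.96 and 0.84. The miR-320 call was lost without replicate 2 of its lysate (-0.43, adjusted p = 0.063). In all, 6 of 72 lysate comparisons of the 9 genes were called, beside 7.42% over all genes. These comparisons called 5% and 2.42% of genes higher, and 4.81%, 6.18% and 10.2% lower. With miR-103 and miR-107 it was lower than with miR-16 and miR-195 by 0.46 ± 0.10 (adjusted p = 0.0037, with 5.76% of genes called lower). The arrays of those branches ran from 5.64 to 6.27 and from 6.18 to 6.61, so they overlapped in part. CHCHD10 was the one other gene called in the lysates, lower after miR-107-mut1 by 0.48 ± 0.16 (adjusted p = 0.046), a call lost in 13 of 24 fits that left out 1 lysate array. Without the 3 lysate arrays that stand apart CHCHD10 was called in 4 transfections, lower after miR-320 (-0.35), miR-15b* (-0.38) and miR-107-mut1 (-0.38) and higher after miR-107-mut2 (0.42). In the same setting SOCS1 was called among the lysates by the F test (adjusted p = 0.0042) and was higher after miR-107-mut2 (0.32 ± 0.08, adjusted p = 0.032), and CRYAB was higher after miR-107 (0.34 ± 0.10, adjusted p = 0.046). Calls rose over all genes there too, with 4272 by the lysate F test against 2783 with all arrays.

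MBP, MALAT1 and SKAP2 were called in neither fraction with transfection as the only factor in the fit, and the IP spread of MBP within a transfection includes the scatter by replicate number given further on. Their IP means ran from 5.98 to 6.88 for MBP, 2.74 to 3.41 for MALAT1 and 2.38 to 2.73 for SKAP2, and no neighbouring steps in those orders exceeded the SDs. In the lysates the lowest values of LMAN1, MALAT1 and SKAP2 belonged to the 3 arrays that stand apart. On replicate 2 of the miR-103, miR-15b* and miR-16 lysates MALAT1 was at 10.79, 8.11 and 9.01, against 11.45 to 12.46 on the other 24 lysate arrays. LMAN1 was at 11, 10 and 9.77 there, against 11.51 to 12.34, and SKAP2 at 9.63, 8.90 and 8.90, against 10.35 to 11.20. All 3 genes were below every other lysate array on these. SOCS1 went the other way, at 8.98, 8.93 and 8.98 against 8.0 to 8.8 on the other arrays. How many of all genes stood apart on these arrays was not computed, so this is not read as particular to the 3 genes. Across the 24 lysate arrays of the 8 transfections their pairwise r was 0.89 to 0.96, a description of arrays that share those 3. Without the arrays that stand apart the mean IP minus lysate differences were -4.54 for LMAN1, -4.61 for MALAT1 and -4.27 for SKAP2. MALAT1 was then called as unequal among the lysates (adjusted p = 0.04), with miR-107-mut1 higher by 0.53 ± 0.15 (adjusted p = 0.011).

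Beside the control, and with no test because the control arrays chose the genes, the IP level of ZFP36 was lower by 2.79 log2 units after miR-107 and by 2.22 after miR-103, and 0.24 higher after miR-320. The differences of MBP from the control in the IP were between -0.71 and 0.19.

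The scatter of MBP and CRYAB among IP arrays followed the replicate number. This was seen in the data and then measured, so it is a description of a pattern that was chosen. Arrays of one number share a code in the labels' descriptions, whose meaning is not given. MBP in the IP averaged 5.04 ± 0.37 on arrays of number 1, 7.77 ± 0.38 of number 2 and 6.55 ± 0.36 of number 3 (deposited log2 units, 8 transfections each). Number 2 was the highest in 8 of 8 transfections, as in 0.181% of genes, and number 1 the lowest in 8 of 8, as in 0.769%, and the control IP had the same order, with 5.35, 8.05 and 6.67. The ranges of the numbers, 4.58 to 5.55, 7.15 to 8.15 and 6.18 to 7.09, did not overlap, and the share of all genes with such ranges was not computed. In the lysates of the same numbers MBP was at 5.66 ± 0.14, 5.93 ± 0.23 and 5.67 ± 0.17, with number 2 the highest in 6 of 8 transfections, and the numbers differed there too (F test, adjusted p = 0.027).

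CRYAB had the same order of means in the IP, at 3.82 ± 0.39, 6.15 ± 0.79 and 5.35 ± 0.43 on numbers 1, 2 and 3. Its lysates were at 5.8, 5.88 and 5.8. Number 2 was the highest in 7 of 8 transfections and number 1 the lowest in 8 of 8. Unlike those of MBP, the ranges of numbers 2 and 3 overlapped, at 5.07 to 7.07 and 4.73 to 5.93. The numbers differed for 30.5% of all genes in the IP and 25% in the lysate by an F test. MBP and CRYAB had an r of 0.91 over the 24 IP arrays, which share these numbers, and 0.17 over the lysate arrays. Number 2 exceeded the mean of the others by 1.98 ± 0.11 for MBP (adjusted p = 5.4e-10) and 1.56 ± 0.19 for CRYAB (adjusted p = 0.00013), and 0.425% of genes were called higher and 0.769% lower there. The other 7 of the 9 genes had adjusted p-values of 0.18 to 0.95 for this contrast. Genes with the largest excess on number 2, after MBP, were SNAP25 (1.64), CRYAB, VSNL1 (1.46), RPPH1 (1.28), FAIM2 (1.27), APOD (1.25) and TUBB4A (1.18). SNAP25 and VSNL1 are neuronal genes, APOD a glial lipocalin and TUBB4A a tubulin of brain. Next came SH3KBP1 (1.05) and SCARNA1 (1.02), both called. Neither they nor RPPH1 were sorted by cell type, so no cell type is read from this ranking.

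Markers of brain cell types were read by the same numbers in the IP, and most were not called. The summed deposited level of the 11 neuronal markers on the array was 38.69 to 43.64 on number 1, 45.38 to 50.96 on number 2 and 44.19 to 48.95 on number 3. The lysate arrays of the 8 transfections gave 74.10 to 78.18. That gap includes the offset between the fractions, so it is not read as lower markers in the IP. Of 7 neuronal markers past the filter 4 were called higher on number 2, as was 1 of 6 astrocyte and glial progenitor markers, 1 of 7 oligodendrocyte markers other than MBP and 0 of 1 haematopoietic marker. The neuronal sums of number 1 lay below those of numbers 2 and 3, which overlapped each other. Sums for oligodendrocyte markers were 41.50 to 45.58, 43.73 to 48.44 and 43.14 to 46.14 on the 3 numbers. Their part in the MBP and CRYAB results was not tested. Within each number the IP minus lysate difference on the joint scale kept its sign: MBP was 3.42 ± 0.43, 6.01 ± 0.52 and 4.61 ± 0.48 higher (SD over 8 transfections), and CRYAB 1.87 ± 0.69, 4.47 ± 0.80 and 3.32 ± 0.28. The difference for CRYAB on number 1 was as low as 0.76 in one transfection.

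**Figure D5:**
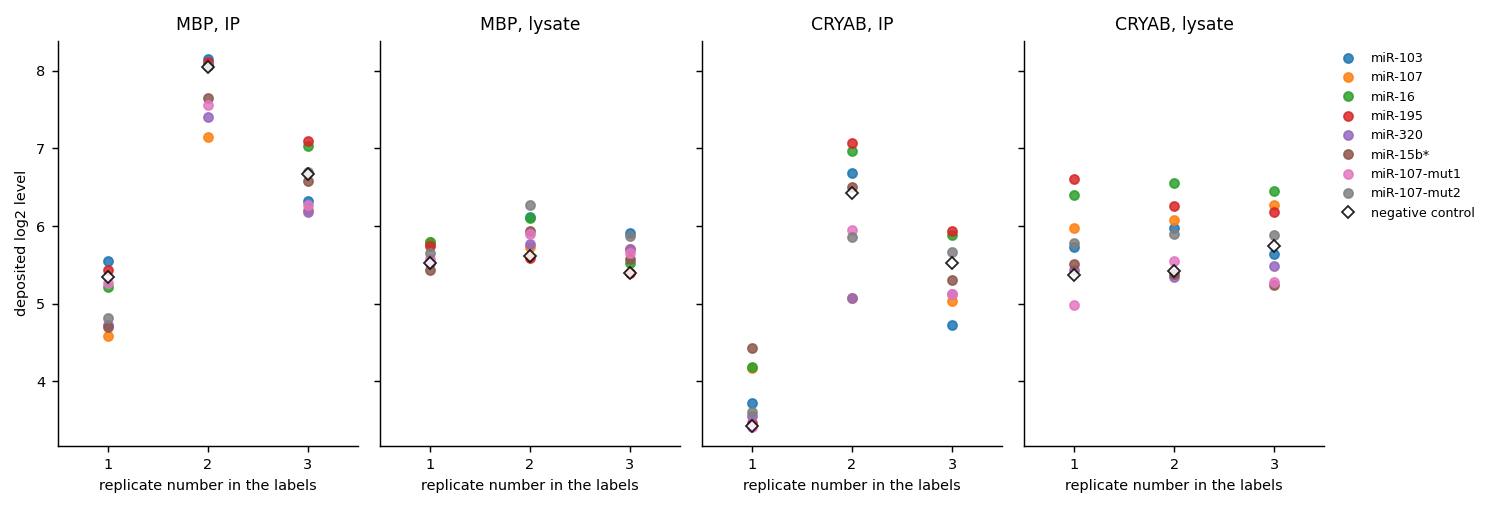
Deposited log2 level of MBP and CRYAB in the IP and lysate by the replicate number in the labels, with 1 point for each of the 8 transfections (coloured) and the negative control (open diamonds). In the IP the MBP points of the 3 numbers form separate bands, at means of 5.04, 7.77 and 6.55, and in the lysate they do not.

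Relatives of the 9 genes were read from lists that were chosen with earlier results known, and they are described by counts over the mean of the 8 transfections, beside 44.3% of genes higher, 46.3% lower and a median difference of -0.04 over all genes. Other immediate early genes, which like ZFP36 are induced within minutes of a stimulus and have short-lived messages, were higher in 13 of 16 and lower in 2, with a median of 1.01. KLF2, a transcription factor, was at 3.30 ± 0.09 (adjusted p = 2.6e-29, rank 16), the AP-1 subunit JUNB at 2.10 ± 0.08 (adjusted p = 6.3e-26), IER5 at 2.09 and MYC at 2.04, while JUN was lower at -1.02 ± 0.08 (adjusted p = 8.3e-15). By contrast, the tristetraprolin family and other factors tied to AU-rich elements or message decay were lower in 11 of 14 and higher in 1, with a median of -1.14. Among them the close paralogue ZFP36L2 was at 0.70 ± 0.07 (adjusted p = 1.1e-11) and ZFP36L1 at 0.04 ± 0.08 (adjusted p = 0.63), and the exonuclease XRN1 was at -2.56 (adjusted p = 6.5e-24).

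Genes of myelin and the oligodendrocyte lineage other than MBP were higher in 7 of 8, with a median of 1.23. The lineage factor OLIG1 was at 2.23 ± 0.09 (adjusted p = 1.5e-24) and MAL, a myelin proteolipid, at 2.13 ± 0.12 (adjusted p = 4.8e-20), while UGT8, which makes galactosylceramide, was lower at -1.55 ± 0.08 (adjusted p = 3.4e-21). Such a rise was not particular to the oligodendrocyte lineage. Neuronal markers were higher in 5 of 7 and lower in 1, with a median of 1.3 and SNAP25 at 2.77. Astrocyte and glial progenitor markers were higher in 3 of 6 and lower in 3, with a median of 0.1 and GFAP at 3.13. Small heat shock genes other than CRYAB were higher in 3 of 4, with HSPB6 at 1.16 and HSPB8 lower at -1.10.

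For most of the other genes the family did not share the extreme place. Of 4 other SERTA domain genes 2 were higher and 2 lower, between -1.11 (SERTAD4) and 0.73 (SERTAD1). A list of mitochondrial CHCH domain genes and subunits of the cristae-organising MICOS complex, IMMT, MICOS10, MICOS13, APOO and APOOL, was lower in 8 of 11 and higher in 2. Among them, CHCHD2, CHCHD3, CHCHD5 and CMC2 were lower, CHCHD6 was higher at 0.29, and CHCHD1 was at -0.14 (adjusted p = 0.17). CHCHD2, the closest relative of CHCHD10, was at -2.38 ± 0.11 (adjusted p = 6.8e-23). SOCS family and cytokine signalling genes other than SOCS1 were lower in 8 of 14 and higher in 4, with SOCS3 at 1.12, CISH at 1.18 and JAK1 at -2.17. Other cargo receptors and coat-associated proteins between endoplasmic reticulum and Golgi were lower in 11 of 18 and higher in 3, and none reached 2 log2 units. MCFD2, the cofactor of LMAN1, was at -1.28 ± 0.14 (adjusted p = 6e-11). TUG1, a further long noncoding RNA, was at -2.21 ± 0.17 (adjusted p = 1e-15), and of 3 such RNAs tested beside MALAT1 2 were lower and 1 higher. In the Src kinase list 4 of 8 were lower and 3 higher, with YES1 at -2.91 and PRAM1, an adaptor like SKAP2, at 3.03 ± 0.10 (adjusted p = 8.5e-28).

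The genes whose deposited levels ran most like each of the 9 over the 24 arrays of a fraction are given as a description, since arrays share transfection, number and normalization. In the IP the highest r was 0.95 with FAM222B for ZFP36, 0.93 with VSNL1 for MBP, 0.90 with XRCC1 for SERTAD3, 0.87 with ATOX1 for CHCHD10, 0.87 with MIER2 for SOCS1 and 0.95 with APOD for CRYAB. It was 0.85 with IL13RA2 for LMAN1, 0.75 with EIF5 for MALAT1 and 0.68 with IFT57 for SKAP2. In the lysates r reached 0.99 with RPS6KA3 for LMAN1, 0.98 with MIER3 for SKAP2 and 0.96 with PPP1R12A for MALAT1, the genes that were low on the 3 arrays that stand apart.

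A feature that the choice did not use is the length of the gene on the chromosome, introns included, taken from RefSeq (GRCh38.p14). ZFP36 spans 2561 bases, SERTAD3 3492, CHCHD10 2139 and SOCS1 1788, which are at the percentiles 7.05, 10.1, 5.67 and 4.61 of the tested genes with a length. CRYAB, at 15177 bases, and MBP, at 154876 bases, were longer (percentiles 38 and 91). Of the low genes LMAN1 spans 31443 bases, MALAT1 8779 and SKAP2 209821 (percentiles 57.7, 25 and 94.4). Over all genes, the 626 with a difference of at least 2 log2 units had a median span of 5787 bases and the 1029 with a difference of -2 or less one of 50832 bases, against 24074 bases for all 11042 genes with a length. Across these genes the rank correlation of span with the IP minus lysate difference was -0.43, and genes are not independent replicates. Promoter GC content and CpG ratio were also computed, with rank correlations of 0.14 and -0.18 over 8777 genes. Only 79.4% of the tested genes had a promoter sequence, below the share required, so that check is void and nothing is read from it.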

How the data were processed

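RNA from Argonaute IPs and lysates was measured on 54 arrays. The authors' deposited values are log2 levels; the submitters' processing notes name RMA and version 1.1 of Affymetrix Expression Console, and the log base was read from RMA's usual scale. The probe table gives a single gene symbol for 19460 of 33297 probe sets, more for 1754, and no symbol for 12083. Those with 1 symbol gave 18417 genes, and for the 769 with more than 1 probe set the brightest by mean stood for the gene. The lowest 40% by mean (7367 genes, below 5.26) were left out. Joint quantile normalization of the 54 arrays gave the scale for IP minus lysate, and tests left out the 6 control arrays. limma 3.58.1 (R 4.3.3) fitted 16 groups on 48 arrays jointly, or 8 groups on 24 arrays of a fraction. The 9 genes and the lists were chosen with earlier results of these data known. The named genes are the 9, those around them in either ranking, those most alike by r, and list members. Nothing beyond the label "biological" says that replicates were separate cultures, so p-values measure the spread between these samples. On simulated data for the miR-320 IP contrast, 71% of changes of 1 and 97% of changes of 2 were recovered among 11050 genes. The F tests recovered fewer: 37% and 85% for the IP level, and 28% and 76% for the IP minus lysate difference. A gene not called by them may therefore still differ. For the miR-16 lysate contrast 92% and 100% were recovered. The simulated noise was drawn independently for each gene and array, on the deposited scale in all of these tests. It held no shared effect of replicate number and no arrays that stand apart, so recovery in the real data may differ. Protein lengths, planned as a feature, were replaced by gene spans because no protein table was used here. Alternatives were other filters, normalizations, a replicate block and arrays left out. The tests and values by replicate number were chosen after seeing the data. Arrays of the same number deviated together on average (mean r of 0.27 in the IP and 0.31 in the lysates, against -0.13 and -0.14 for other numbers). They did not in every pair (84 and 79 of 108 above 0.1). The main fits did not take the numbers as pairs, and the replicate block is given as an alternative. Figures used matplotlib.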

Additional observations from a re-analysis of the deposited data

Results flagged for a closer look

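The size of the IP minus lysate difference was unequal among the 8 transfections by an F test of the interaction for ZFP36 (adjusted p = 0.031), from 4.29 with miR-320 and 4.18 with miR-107-mut1 to 2.56 with miR-107, and for SERTAD3 (adjusted p = 0.00091), from 4.57 with miR-15b* to 2.71 with miR-103. Groups held 3 arrays, so single arrays within them were not screened as outliers.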

How the results depend on the processing

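The offset between fractions is the choice that turned signs. On the deposited values as they stand, the mean of the 8 transfections was -0.83 for ZFP36, -0.97 for SERTAD3, -1.05 for CHCHD10, -1.02 for SOCS1 and -0.72 for CRYAB, and the control difference was -0.24 for SERTAD3, -0.0033 for CHCHD10, -0.53 for SOCS1 and -0.38 for CRYAB, so that 5 of the 9 genes kept their control sign. There 24 of 72 pairs were called 2 log2 units in the control's direction, and 10739 genes against 1634 passed that size. By construction these values keep the offset that separate normalization left. Under the other scalings, filters and fits, the replicate block and the arrays that stand apart left out, the mean of the 8 lay at 3.26 to 3.85 for ZFP36, 4.66 to 4.87 for MBP and -4.54 to -4.03 for LMAN1, and with 1 array left out at a time it was 3.5 to 3.59, 4.57 to 4.79 and -4.43 to -4.29.

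Genes called for the mean of the 8 were 10009, against 16362 with no filter and 6563 with the lowest 60% left out, where 1016 passed 2 log2 units and fewer or more genes were tested. With the 60% filter, which MBP and CRYAB did not pass, 1 member pair in place of 6 was called in the lysates, and the F test called 1 member in place of 2, as with no filter. Trended, robust eBayes and cyclic loess within the fraction left 3 of 5 members called among the IPs, and with that loess the IP test called 1219 genes against 699 and the branch contrast 79 against 34. A replicate block gave 1838 genes for the IP test, 4250 against 2783 for the lysate test, 74 and 1607 (against 983) for the branch contrast in IP and lysate, and 8 member calls in place of 3 among the IPs. With it MBP was called by the IP F test (adjusted p = 0.022, against 0.99 without) and SOCS1 by the lysate F test (0.047, against 0.16), though the numbers are not shown to pair the samples. Without the arrays that stand apart these were 1094, 4272, 58, 1667 and 7, with 12 member pairs called in the lysates and 4 members by the lysate F test. Apart from the offset, the cause of these shifts was not tested.

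Leaving out 1 array at a time gave 9967 to 10073 genes for the mean of the 8, 1564 to 1694 at 2 log2 units, 72 to 72 pairs, 754 to 1307 for the interaction (898 with all arrays), 438 to 1351 for the IP test, 18 to 58 for the IP branch contrast, 2 to 7 member calls and 4 to 5 members among the IPs. In the lysates it gave 2230 to 3322 genes, 686 to 1229 for the branch contrast, 4 to 7 member calls and 1 to 2 members, and in the control 9 to 9 signs. The IP test fell to 438 genes without miR-320 replicate 3, and was 1351 without miR-15b* replicate 3 and 1094 without its replicate 1. The IP branch contrast called 18 genes without miR-103 replicate 2, 19 without miR-16 replicate 2 and 22 without miR-107 replicate 3, against 58 and 52 without miR-15b* replicates 1 and 3. Of the values of single genes under alternatives that keep all or most arrays, 392 kept their direction and call, 12 lost a call, 10 gained one, 11 moved without a test and 9 changed sign.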
